A study of Mus musculus with 8 samples.

Results

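The genes described here are 10 genes of haematopoietic stem and progenitor cells, Kit, Cd34, Procr, Gata2, Meis1, Hoxa9, Hlf, Mecom, Mycn and Egfl7. They were taken by symbol from a list, and all 10 were found among the 52636 genes of a deposited count table for mouse spleen. All 10 also passed the filter on low counts, Hoxa9 only through its counts in unirradiated mutants, and the filter left 17327 genes for testing. RNA of whole spleens from C57BL/6 mice aged 6 weeks was sequenced in 4 groups of 2 libraries each. In irradiated mutants, sampled 7 days after 4 Gy, Lmna, which encodes the nuclear lamins A and C, held the substitution R527C. Irradiated wild type mice were sampled 7 days after 4 Gy, and had no Lmna substitution. Unirradiated mutants carried R527C and were sampled at day 0 without irradiation. Unirradiated wild type mice were sampled at day 0 without irradiation or substitution. The labels do not say whether the mutants carried 1 or both copies of the substitution, what sex the mice were, or whether the 2 libraries of a group came from separate mice. According to the design text, the study set out to learn how the substitution leads to senescence.

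Haematopoietic stem cells renew themselves and give rise, through progenitors of narrowing potential, to all blood cells. In the adult mouse most of them lie in the bone marrow, but the mouse spleen keeps a small number and is a known site of blood formation after irradiation, blood loss or marrow failure. Surface receptors such as KIT let these cells answer growth factors, while transcription factors such as GATA2, MEIS1, HOXA9, HLF and the product of Mecom hold the stem cell programme. Several of the 10 genes are also used by other cells of the spleen: Cd34, Procr, Meis1, Mecom and Egfl7 by endothelium, Cd34 by fibroblasts, and Kit and Gata2 by mast cells. In whole-spleen RNA, a difference in the number of expressing cells and a difference in RNA per cell cannot be told apart.

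Libraries held 12100784 to 19455470 gene counts. A floor of 3 counts per library, up to which a level may lie when 0 are seen, was worth 0.131 to 0.350 CPM (counts per gene, scaled for the depth of the library). The scaling used TMM, a method that sets the bulk of genes level between libraries. The 2 irradiated mutant libraries differed more than other replicates, with a correlation of log2 CPM across genes of 0.877, against 0.942 in irradiated wild type, 0.988 in unirradiated mutants and 0.982 in unirradiated wild type. Erythroid markers took 13.7% of the counts in irradiated mutant replicate 1 and 1.78% in replicate 2. Xist was at 1029 to 1776 CPM in the 4 irradiated libraries, in which 4 Y-linked genes had 0 counts, whereas in the 4 unirradiated libraries Xist had at most 6 counts and the Y-linked genes 264 to 299 CPM. Irradiation, sampling day and sex-linked expression therefore cannot be told apart in any comparison of irradiated with unirradiated spleens. Lmna had 284 and 57.7 CPM in irradiated mutants and 213 and 113 CPM in irradiated wild type, against 86.9 and 86.3 CPM in unirradiated mutants and 108 and 81.3 CPM in unirradiated wild type. A substitution leaves the transcript in place, so these levels do not check the genotype. Markers of spleen tissue summed to 760 to 1757 CPM, and none of the 12 was at 0 in any library.

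Irradiated mutant spleens had higher levels of Cd34 and Mecom than unirradiated mutant spleens, by 2.13 and 2.37 on the log2 scale, and a lower level of Hoxa9. In wild type spleens Hlf was higher and Hoxa9 and Mycn were lower after irradiation than without it. Between the genotypes, Mycn was higher in irradiated mutants than in irradiated wild type, and Mecom, Cd34 and Egfl7 were lower in unirradiated mutants than in unirradiated wild type. None of these differences passed the threshold of 0.05 on the adjusted p of edgeR's quasi-likelihood test, in a fit of all 8 libraries with adjustment over 17327 genes. Each gene is therefore given below by its values, and a difference that did not pass is given as a value with its standard error (SE).

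**Figure D1:**
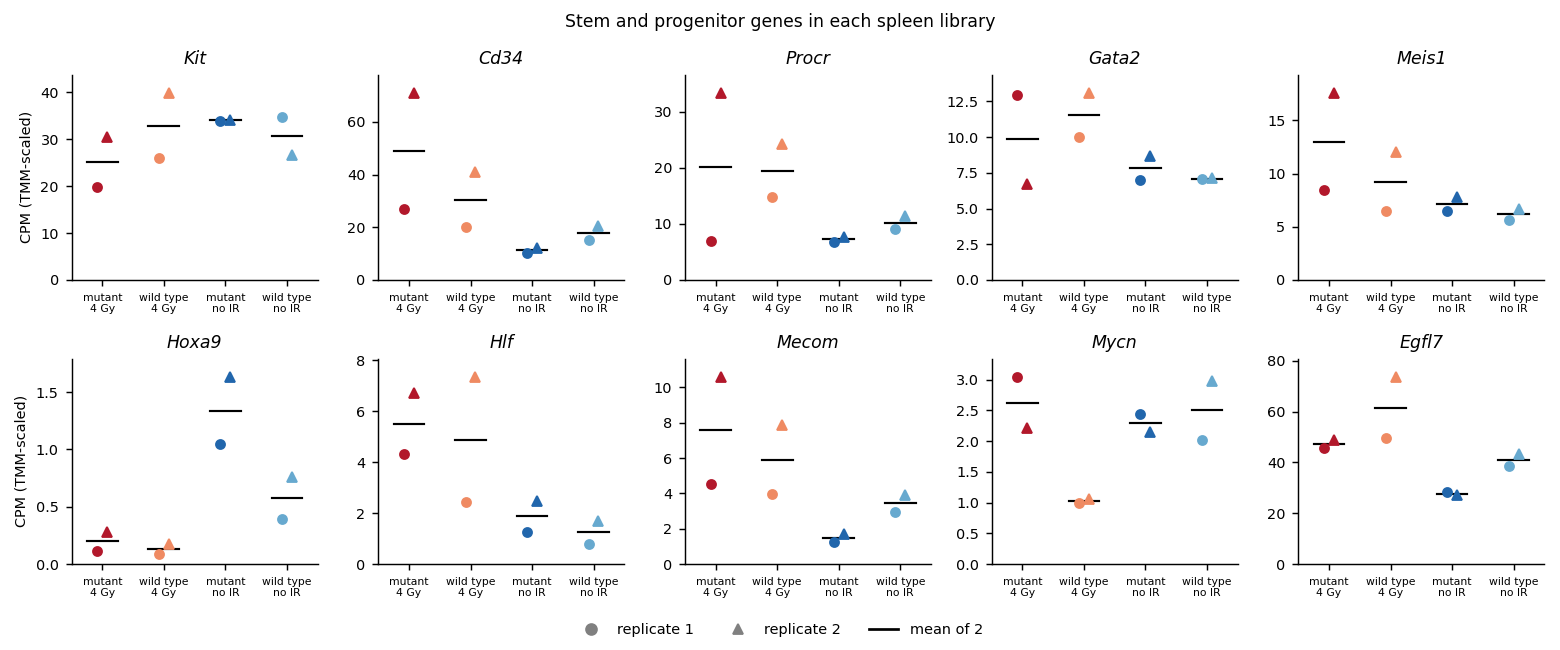
TMM-scaled CPM of each of the 10 genes in the 8 libraries (vertical axes in CPM, each from 0), with irradiated mutants, irradiated wild type, unirradiated mutants and unirradiated wild type from left to right (no IR: not irradiated) and a line at the mean of 2. Cd34, at 26.7 and 70.9 CPM in irradiated mutants against 10.2 and 12.2 CPM in unirradiated mutants, and Hoxa9, at 0.117 and 0.277 CPM against 1.05 and 1.63 CPM, show the separation of irradiated from unirradiated mutants, and the spread between the 2 irradiated libraries of a group is wide for most genes.

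The levels of different genes were set side by side as TPM (counts per exon length, scaled to the same sum in each library), which take the annotated exon length into account. In irradiated mutants the order was led by Egfl7 at 24.1 ± 11.0 TPM (SD, n = 2 here and below), Procr at 21.5 ± 24.2 TPM and Cd34 at 13.8 ± 12.8 TPM, with Kit next at 5.45 ± 3.67 TPM. The 1 SD ranges of Egfl7, Procr and Cd34 overlapped. Within each library, Egfl7 was above Cd34, at 16.4 against 4.72 TPM in replicate 1 and 31.9 against 22.8 TPM in replicate 2. Procr was below both in replicate 1 (4.37 TPM) and above both in replicate 2 (38.5 TPM). In unirradiated wild type, Egfl7 had 31.0 ± 1.73 TPM, Procr 13.6 ± 0.303 TPM, Kit 9.52 ± 3.08 TPM and Cd34 6.60 ± 0.443 TPM. The order went on there with Gata2 at 3.58 ± 0.457 TPM, Mycn at 2.03 ± 0.269 TPM, Meis1 at 1.58 ± 0.0440 TPM, Mecom at 0.743 ± 0.0467 TPM, Hlf at 0.491 ± 0.193 TPM and Hoxa9 at 0.273 ± 0.0863 TPM. The 1 SD ranges of neighbours in that order overlapped for Kit with Cd34 and for Hlf with Hoxa9, and the other neighbours lay further apart than their SDs. Within each unirradiated wild type library, Kit was nevertheless above Cd34 and Hlf above Hoxa9. Unirradiated mutants had the same 5 genes at the top, with Egfl7 at 22.1 ± 1.94 TPM, Kit at 10.9 ± 0.554 TPM, Procr at 10.1 ± 0.311 TPM, Cd34 at 4.36 ± 0.309 TPM and Gata2 at 4.13 ± 0.399 TPM, and Mecom came last at 0.335 ± 0.0480 TPM. In irradiated wild type, Egfl7 led at 33.4 ± 9.81 TPM and Hoxa9 came last at 0.0466 ± 0.0222 TPM.

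Kit (ENSMUSG00000005672.12, GRCm38 chr5:75574916-75656722, plus strand) encodes the receptor for stem cell factor, which stem cells, early progenitors and mast cells need for survival and division. It had 19.7 and 30.5 CPM in irradiated mutants and 26.0 and 39.8 CPM in irradiated wild type, against 33.9 and 34.1 CPM in unirradiated mutants and 34.8 and 26.6 CPM in unirradiated wild type. Both irradiated mutant libraries lay below both unirradiated mutant libraries, while the wild type groups overlapped. The difference after irradiation in mutants was −0.43 ± 0.34 on the log2 scale (SE; edgeR, adjusted p = 0.471), a 1.35-fold lower level. Irradiated wild type differed from unirradiated wild type by 0.10 ± 0.34 (edgeR, adjusted p = 0.889), a direction that turned to −0.24 when libraries were scaled by their raw totals and to −9e-04 without the filter. The genotypes overlapped with irradiation and without it.

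Cd34 (ENSMUSG00000016494.9, GRCm38 chr1:194938819-194961279, plus strand) encodes a surface sialomucin of progenitors, small-vessel endothelium and fibroblasts. The level was 26.7 and 70.9 CPM in irradiated mutants and 19.9 and 41.0 CPM in irradiated wild type, against 10.2 and 12.2 CPM in unirradiated mutants and 15.3 and 20.5 CPM in unirradiated wild type. Both irradiated mutant libraries were above both unirradiated mutant libraries, and irradiated mutant replicate 2 was the highest of the 8. In wild type, irradiated replicate 1 lay between the 2 unirradiated libraries, so these groups overlapped. The difference after irradiation was 2.13 ± 0.53 in mutants, 4.37-fold higher (edgeR, adjusted p = 0.104), and 0.77 ± 0.52 in wild type, 1.70-fold higher (edgeR, adjusted p = 0.447). In mutants, Cd34 did pass without the low-count filter (2.004, edgeR, adjusted p = 0.00016) and by DESeq2 (2.06, adjusted p = 0.00741). Many other genes passed there too: 2147 genes without the filter and 1962 by DESeq2, against 104 by edgeR with the filter. The difference was 2.61 without irradiated mutant replicate 1 and 1.11 without irradiated mutant replicate 2. Unirradiated mutants lay below unirradiated wild type in both libraries, by −0.68 ± 0.52 (edgeR, adjusted p = 1). Exons of Cd34 share 148 bases with the opposite-strand gene Gm16897, and with the strand setting of the counting not given, reads from those bases may belong to either gene.

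The promoter windows printed in the paragraphs on Cd34, Hoxa9 and Mecom belong to the 3 genes with the smallest p after irradiation in mutants, and cover 250 bases before to 50 bases after the annotated start in RefSeq, assembly GRCm38.p6. In capitals are words of the kind bound by GATA factors, which were AGATAA, its form TGATAA with the first letter exchanged, and the forms of both that end in G, here AGATAG as well as the remaining TGATAG. Also in capitals are words of the kind bound by ETS factors, which were AGGAAG as well as its form CGGAAG. Words were searched on both strands, and in the 4 windows shown no match overlapped another. Of 32851 windows of 300 bases in the table, 29.8% held a GATA-type word and 46.5% an ETS-type word, so a match is a description of the letters and shows no binding. The Cd34 window, at chr1:194938571-194938870 on the plus strand, held 1 GATA-type and 1 ETS-type word, both read from the minus strand.
Cd34: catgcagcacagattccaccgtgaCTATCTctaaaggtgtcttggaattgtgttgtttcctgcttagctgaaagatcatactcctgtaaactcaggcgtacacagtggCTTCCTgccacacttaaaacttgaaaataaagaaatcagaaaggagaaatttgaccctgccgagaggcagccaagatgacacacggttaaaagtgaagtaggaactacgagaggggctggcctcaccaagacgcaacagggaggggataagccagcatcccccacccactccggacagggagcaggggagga

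Procr (ENSMUSG00000027611.12, GRCm38 chr2:155751117-155755471, plus strand) encodes the endothelial protein C receptor, a marker of long-term stem cells in mouse marrow that is also found on endothelium. Its values were 6.89 and 33.3 CPM in irradiated mutants and 14.8 and 24.3 CPM in irradiated wild type, against 6.80 and 7.68 CPM in unirradiated mutants and 9.06 and 11.4 CPM in unirradiated wild type. The irradiated mutant libraries were the farthest apart of any pair for this gene, with replicate 1 inside the range of the unirradiated mutants and replicate 2 above all other libraries. Irradiated wild type lay above unirradiated wild type in both libraries. The difference after irradiation was 1.48 ± 0.65 in mutants (edgeR, adjusted p = 0.233) and 0.94 ± 0.65 in wild type (edgeR, adjusted p = 0.457). In mutants it was 2.15 without irradiated replicate 1 (edgeR, adjusted p = 0.0136) and turned to −0.22 without irradiated replicate 2 (edgeR, adjusted p = 0.731), so 1 library decided its direction. It also passed without the low-count filter (1.38, edgeR, adjusted p = 0.0495), where 2147 of all genes passed, against 104 with the filter.

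Gata2 (ENSMUSG00000015053.14, GRCm38 chr6:88193891-88207032, plus strand) encodes a zinc-finger factor needed by stem cells, early progenitors and mast cells. It had 13.0 and 6.70 CPM in irradiated mutants and 10.01 and 13.1 CPM in irradiated wild type, against 7.02 and 8.70 CPM in unirradiated mutants and 7.03 and 7.15 CPM in unirradiated wild type. Irradiated wild type lay above unirradiated wild type in both libraries, by 0.70 ± 0.41 (edgeR, adjusted p = 0.394). Among mutants the irradiated libraries fell on either side of the unirradiated ones, with a difference of 0.31 ± 0.41 (edgeR, adjusted p = 0.672) that turned to −0.16 with scaling by raw totals. Gata2 was the member whose values followed the summed erythroid markers most closely, with r = 0.851 over the 8 libraries. That r is given as a description, since the libraries share groups and depth.

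Meis1 (ENSMUSG00000020160.18, GRCm38 chr11:18879817-19018985, minus strand) encodes a homeodomain partner of HOX proteins that keeps stem cells quiescent and is also active in megakaryocytes and endothelium. The gene had 8.41 and 17.5 CPM in irradiated mutants and 6.49 and 12.01 CPM in irradiated wild type, against 6.46 and 7.82 CPM in unirradiated mutants and 5.67 and 6.64 CPM in unirradiated wild type. Irradiated and unirradiated mutants did not overlap, although replicate 1 exceeded the higher unirradiated library by little, and the wild type groups overlapped. The difference after irradiation was 0.87 ± 0.47 in mutants (edgeR, adjusted p = 0.312) and 0.59 ± 0.48 in wild type (edgeR, adjusted p = 0.523). Without irradiated mutant replicate 2 the difference in mutants was 0.09. Its exons share 1029 bases with Gm37818 on the same strand and 896 bases with Gm16140 on the opposite strand, so part of its counts may belong to those genes.

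Hoxa9 (ENSMUSG00000038227.15, GRCm38 chr6:52223100-52231089, minus strand) encodes a homeodomain factor of stem and myeloid progenitor cells that forms complexes with MEIS1. It was at the limit of detection in irradiated spleens, with 1 and 5 counts in irradiated mutants and 1 and 2 counts in irradiated wild type, against 24 and 35 counts in unirradiated mutants and 9 and 12 counts in unirradiated wild type. On the scaled level these were 0.117 and 0.277 CPM in irradiated mutants and 0.0901 and 0.177 CPM in irradiated wild type, against 1.05 and 1.63 CPM in unirradiated mutants and 0.396 and 0.759 CPM in unirradiated wild type. Every irradiated library was below every unirradiated library, and both unirradiated mutants were above both unirradiated wild type libraries. Only in unirradiated mutants did both libraries reach the 10 counts of the low-count filter, so Hoxa9 was tested because of the group where it was highest. Its differences from that group are therefore descriptions, and neither the fit nor the intervals below allow for that selection. Taken over the pooled counts and scaled library sizes, irradiated mutants had 0.170 of the level of unirradiated mutants (95% exact counting interval 0.0598 to 0.392), from 6 against 59 counts. In wild type the ratio of irradiated to unirradiated was 0.246 (0.0469 to 0.823), from 3 against 21 counts. These intervals cover counting error only, without the spread between libraries.

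The fitted difference of Hoxa9 after irradiation was −2.61 ± 0.83 on the log2 scale in mutants (edgeR, adjusted p = 0.141) and −2.03 ± 0.93 in wild type (edgeR, adjusted p = 0.306), and at counts this low a fitted value depends on the prior count. Between the genotypes, unirradiated mutants had 2.44 times the level of unirradiated wild type (counting interval 1.46 to 4.23, from 59 against 21 counts), fitted as 1.22 ± 0.73 (edgeR, adjusted p = 1). The irradiated genotypes had 6 and 3 counts in all, a ratio of 1.68 with a counting interval of 0.360 to 10.4, so no difference was detectable at this depth. Its exons hold 85 bases of Mir196b on the same strand. The Hoxa9 window, at chr6:52227321-52227620 on the minus strand, held 1 GATA-type and 2 ETS-type words.
Hoxa9: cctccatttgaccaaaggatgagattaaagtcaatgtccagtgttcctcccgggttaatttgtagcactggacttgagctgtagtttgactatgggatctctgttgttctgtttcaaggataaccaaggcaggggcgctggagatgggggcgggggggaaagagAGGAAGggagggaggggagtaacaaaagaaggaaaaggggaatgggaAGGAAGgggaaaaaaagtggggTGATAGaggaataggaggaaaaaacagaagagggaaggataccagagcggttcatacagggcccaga

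Hlf (ENSMUSG00000003949.16, GRCm38 chr11:90336536-90390895, minus strand) encodes a leucine-zipper factor that marks haematopoietic stem cells and is also rhythmically active in other tissues. Its level was 4.32 and 6.70 CPM in irradiated mutants and 2.43 and 7.33 CPM in irradiated wild type, against 1.27 and 2.47 CPM in unirradiated mutants and 0.791 and 1.71 CPM in unirradiated wild type. In both genotypes the irradiated libraries lay above the unirradiated ones, and irradiated wild type replicate 1 was close to the higher unirradiated mutant. The difference was 1.57 ± 0.70 in mutants, 2.96-fold (edgeR, adjusted p = 0.237), and 1.98 ± 0.72 in wild type, 3.93-fold (edgeR, adjusted p = 0.24). Without irradiated wild type replicate 2 the difference in wild type was 0.96. Genotypes overlapped with irradiation and without it.

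Mecom (ENSMUSG00000027684.16, GRCm38 chr3:29951296-30548008, minus strand) encodes the zinc-finger factors EVI1 and MDS1-EVI1, which long-term stem cells need, and is also transcribed in endothelium. It had 4.56 and 10.6 CPM in irradiated mutants and 3.97 and 7.86 CPM in irradiated wild type, against 1.26 and 1.68 CPM in unirradiated mutants and 2.95 and 3.92 CPM in unirradiated wild type. Irradiated libraries were above unirradiated libraries of the same genotype, by a narrow margin in wild type. Both unirradiated mutants were below all other libraries. After irradiation the difference was 2.37 ± 0.59 in mutants, 5.17-fold (edgeR, adjusted p = 0.104), and 0.79 ± 0.56 in wild type, 1.72-fold (edgeR, adjusted p = 0.474). In mutants it passed without the low-count filter (2.24, edgeR, adjusted p = 0.00948) and by DESeq2 (2.31, adjusted p = 0.00487). These settings called 2147 and 1962 of all genes, against 104 by edgeR with the filter. The difference of Mecom in mutants was 2.79 without irradiated mutant replicate 1 and 1.48 without irradiated mutant replicate 2. Unirradiated mutants differed from unirradiated wild type by −1.22 ± 0.58, a 2.33-fold lower level (edgeR, adjusted p = 1).

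Transcription of Mecom starts at separate promoters for the long MDS1-EVI1 and the short EVI1 form, which gene counts do not tell apart, and 81 exon bases are shared with Mecomos on the opposite strand. Both RefSeq windows are shown, since the counts could come from either. The window at chr3:30509710-30510009 on the minus strand held 1 GATA-type and 0 ETS-type words, and the window at chr3:30013155-30013454 on the minus strand held 1 of each.
Mecom, window from 30509710: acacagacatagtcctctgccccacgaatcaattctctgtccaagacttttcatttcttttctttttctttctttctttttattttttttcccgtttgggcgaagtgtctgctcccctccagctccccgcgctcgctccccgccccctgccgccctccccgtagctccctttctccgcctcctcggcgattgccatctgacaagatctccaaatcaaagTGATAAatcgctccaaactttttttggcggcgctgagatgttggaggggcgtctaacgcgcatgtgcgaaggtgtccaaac
Mecom, window from 30013155: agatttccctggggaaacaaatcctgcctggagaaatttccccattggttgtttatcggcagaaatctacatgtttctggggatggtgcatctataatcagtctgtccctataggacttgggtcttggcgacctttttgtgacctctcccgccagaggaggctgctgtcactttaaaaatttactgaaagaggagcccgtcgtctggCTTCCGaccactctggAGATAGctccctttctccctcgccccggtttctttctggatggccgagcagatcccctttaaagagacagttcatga
Among the other 7 members, 1 GATA-type word stood in each of the 3 Egfl7 windows, and 0 in the windows of Kit, Procr, Gata2, Meis1, Hlf and Mycn.

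Mycn (ENSMUSG00000037169.15, GRCm38 chr12:12936093-12941914, minus strand) encodes a MYC family factor of dividing progenitors. The gene had 3.04 and 2.21 CPM in irradiated mutants and 0.991 and 1.06 CPM in irradiated wild type, against 2.44 and 2.14 CPM in unirradiated mutants and 2.02 and 2.97 CPM in unirradiated wild type. Both irradiated wild type libraries lay below all 6 others, which ranged over one another. Irradiated mutants were 2.53-fold above irradiated wild type, at 1.34 ± 0.53 on the log2 scale (edgeR, unadjusted p = 0.0357, adjusted p = 1). The irradiated wild type value rested on 11 and 12 counts. Irradiated wild type differed from unirradiated wild type by −1.27 ± 0.52 (edgeR, adjusted p = 0.274). In mutants the corresponding difference was 0.19 ± 0.50 (edgeR, adjusted p = 0.845), and it turned to −0.23 with scaling by raw totals.

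Egfl7 (ENSMUSG00000026921.18, GRCm38 chr2:26580014-26593120, plus strand) encodes a protein secreted by endothelium and by stem cells, and its introns carry the microRNA miR-126. The level was 45.5 and 48.6 CPM in irradiated mutants and 49.7 and 73.5 CPM in irradiated wild type, against 28.4 and 27.1 CPM in unirradiated mutants and 38.6 and 43.4 CPM in unirradiated wild type. Mutants were below wild type of the same treatment in every library, and irradiated libraries were above unirradiated libraries of the same genotype. The difference after irradiation was 0.76 ± 0.28 in mutants (edgeR, adjusted p = 0.179) and 0.59 ± 0.28 in wild type (edgeR, adjusted p = 0.319). Between the genotypes it was −0.39 ± 0.28 with irradiation and −0.56 ± 0.28 without it (edgeR, adjusted p = 1 for both). Annotated exons of Egfl7 overlap those of Gm20532 (264 bases, same strand), Agpat2 (64 bases, opposite strand) and both miR-126 genes.

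**Figure D2:**
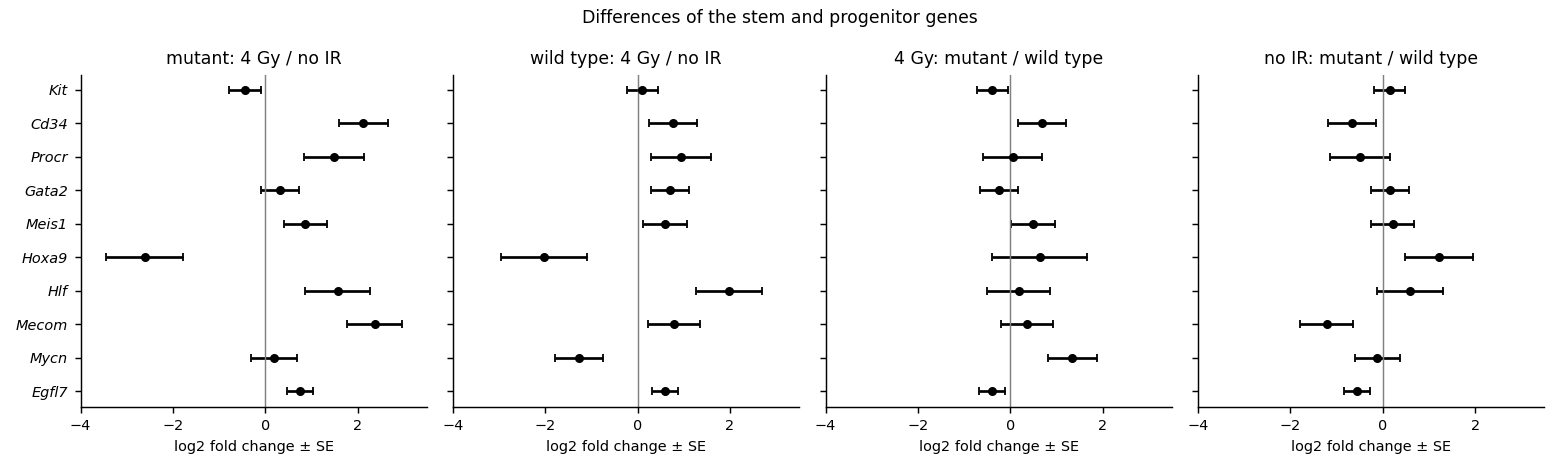
Log2 fold change with its standard error (horizontal axis; points and bars) of the 10 genes in the fit of all 8 libraries, from left to right irradiated over unirradiated mutants, irradiated over unirradiated wild type, irradiated mutants over irradiated wild type and unirradiated mutants over unirradiated wild type. Cd34 at 2.13, Mecom at 2.37 and Hoxa9 at −2.61 lie farthest from 0 in the first panel; the signs of Gata2 and Mycn in the first panel and of Kit in the second turned with scaling by raw totals.

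Over the 10 genes, irradiated mutants compared with unirradiated mutants gave 8 differences above 0 and a median of 0.82, beside 56.3% above 0 and a median of 0.15 over all 17327 genes. By edgeR 0 of the 10 passed, beside 0.6% of all genes tested (0.254% higher and 0.346% lower). By DESeq2 2 of the 10 passed, beside 1962 of all 17327 genes, and by limma-voom 0 of the 10. At an unadjusted p under 0.05 there were 4, Mecom, Cd34, Hoxa9 and Egfl7, beside 22.1% of all genes. Groups did not overlap for 7 of the 10, with Cd34, Meis1, Hlf, Mecom and Egfl7 higher and Kit and Hoxa9 lower, but 52.6% of all genes did not overlap either (26.9% higher and 25.7% lower). With libraries scaled by their raw totals, the median of all genes moved to −0.25 and that of the 10 genes to 0.49, with 6 of them above 0.

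In wild type, irradiated compared with unirradiated spleens also gave 8 differences above 0, with a median of 0.65 beside 0.09 over all genes, of which 54.2% were above 0. By edgeR, DESeq2 and limma-voom 0 of the 10 passed, where 0.0577% of all genes passed with edgeR (0.0115% higher and 0.0462% lower), and 2 of the 10, Hlf and Mycn, had an unadjusted p under 0.05, beside 17.3% of all genes. Procr, Gata2, Hlf, Mecom and Egfl7 were higher and Hoxa9 and Mycn lower without overlap, 7 of the 10, beside 57.5% of all genes (29.7% higher and 27.8% lower). Scaling by raw totals gave medians of 0.32 for the 10 genes, with 7 above 0, and −0.25 for all genes.

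The irradiated genotypes overlapped for 8 of the 10 genes, with Mycn higher and Egfl7 lower in irradiated mutants without overlap, beside 17.9% of all genes without overlap (10.4% higher and 7.46% lower). By edgeR, DESeq2 and limma-voom 0 of the 10 passed, and 0% of all genes passed with edgeR. Mycn alone had an unadjusted p under 0.05, which 4.02% of all genes had, and the median over the 10 was 0.27 beside 0.02 over all genes. Of the 8 overlapping genes, 7 turned sign without irradiated mutant replicate 2, namely Cd34, Procr, Gata2, Meis1, Hoxa9, Hlf and Mecom, for instance to −0.25 for Cd34 and −1.56 for Procr. Mycn kept its sign when either irradiated mutant library was left out, at 1.145 without replicate 1 and 1.498 without replicate 2.

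Without irradiation, the genotypes did not overlap for 5 of the 10 genes, with Hoxa9 higher in mutants and Cd34, Procr, Mecom and Egfl7 lower, beside 45.7% of all genes (20.8% higher and 25% lower). By edgeR, DESeq2 and limma-voom 0 of the 10 passed, 0% of all genes passed with edgeR, and 0 of the 10 had an unadjusted p under 0.05, beside 2.24% of all genes. The medians were 0.01 over the 10 genes and −0.02 over all genes. The 4 genes that were lower in unirradiated mutants are all transcribed in endothelium. Meis1, also active there, was not lower, and its unirradiated genotypes overlapped, at 0.21 ± 0.47 on the log2 scale. Summed endothelial markers were 587 and 595 CPM in unirradiated mutants against 647 and 700 CPM in unirradiated wild type. The part of endothelial content in these levels was not tested.

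The difference between the irradiation effects of the genotypes, mutants minus wild type, was tested as an interaction. It was 1.58 ± 0.80 for Mecom, 1.46 ± 0.72 for Mycn and 1.36 ± 0.73 for Cd34, each with an adjusted p of 1 by edgeR. By edgeR, DESeq2 and limma-voom 0 of the 10 genes passed, 0% of all genes passed with edgeR, and 0 of the 10 had an unadjusted p under 0.05, beside 1.6% of all genes. The larger difference of Cd34 and Mecom after irradiation in mutants than in wild type was therefore not separated from the spread between libraries. In both genes the unirradiated mutants were also the lowest libraries, at 1.26 and 1.68 CPM for Mecom and 10.2 and 12.2 CPM for Cd34. The interactions of Mecom and Cd34 thus rest in part on that group.

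Of 34 other stem and progenitor genes, 33 were tested, and 15 were above 0 in irradiated compared with unirradiated mutants, with a median of −0.06. In irradiated compared with unirradiated wild type 19 were above 0, with a median of 0.08, which scaling by raw totals turned to −0.26 with 11 above 0. In mutants edgeR called 0 of the 33 and DESeq2 6, with 8 at an unadjusted p under 0.05. In wild type edgeR called 0 and DESeq2 4, with 5 at an unadjusted p under 0.05, and limma-voom called 0 in both. As background for this list and those below, DESeq2 called 1962 of all 17327 genes in mutants and 1161 in wild type. By edgeR 22.1% and 17.3% of all genes had an unadjusted p under 0.05. Nkx2-3, a homeodomain factor of spleen stroma that is also active in stem cells, was higher by 1.47 ± 0.34 in irradiated mutants (edgeR, adjusted p = 0.0948) and by 1.29 ± 0.34 in irradiated wild type (edgeR, adjusted p = 0.169). Angpt1, an angiopoietin made by megakaryocytes and progenitors, had the smallest p of the list between unirradiated genotypes, at 0.86 ± 0.42 higher in mutants (edgeR, adjusted p = 1).

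In the HOX, MEIS and PBX family, whose proteins bind DNA together with HOXA9 and MEIS1, 20 of 25 other genes were tested. In irradiated compared with unirradiated mutants 17 of the 20 were above 0, with a median of 1.40, and in wild type 16 were, with a median of 0.67. Scaling by raw totals left medians of 1.08 in mutants and 0.36 in wild type. By edgeR 0 of the 20 passed in either, with 7 at an unadjusted p under 0.05 in mutants and 3 in wild type, while DESeq2 called 6 in mutants and 2 in wild type, and limma-voom 0. Hoxa7 and Hoxa5, neighbours of Hoxa9 in the HOXA cluster, were higher in irradiated than in unirradiated mutants by 2.05 ± 0.54 and 2.14 ± 0.64 (edgeR, adjusted p = 0.109 and 0.128), where Hoxa9 was lower.

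For KIT and early cytokine signalling, 25 of 26 genes were tested, with 11 above 0 after irradiation in mutants and 14 in wild type (10 in each with scaling by raw totals). By edgeR 0 passed in either, with 8 at an unadjusted p under 0.05 in mutants and 9 in wild type. DESeq2 called 5 in each, and limma-voom 1 in mutants and 0 in wild type. Between the genotypes, irradiated or not, edgeR, DESeq2 and limma-voom called 0 genes of these 3 lists, and 0 had an unadjusted p under 0.05. Kitl, which encodes stem cell factor, the ligand of KIT, had 127 and 108 CPM in irradiated mutants and 77.5 and 94.1 CPM in irradiated wild type, against 41.4 and 34.3 CPM in unirradiated mutants and 30.6 and 32.1 CPM in unirradiated wild type. All 4 irradiated libraries exceeded all 4 unirradiated ones, by 1.64 ± 0.27 in mutants (edgeR, adjusted p = 0.0537) and 1.45 ± 0.27 in wild type (edgeR, adjusted p = 0.119). The ligand was thus higher after irradiation in libraries where the receptor Kit was lower (mutants) or overlapped (wild type). Sh2b3, an adaptor that restrains KIT signalling, was lower after irradiation by −1.40 ± 0.36 in mutants (edgeR, adjusted p = 0.106) and −1.55 ± 0.36 in wild type (edgeR, adjusted p = 0.143).

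Markers of other spleen cells moved in the same libraries. The 16 stromal markers summed to 1245 and 2666 CPM in irradiated mutants and 755 and 1638 CPM in irradiated wild type, against 591 and 534 CPM in unirradiated mutants and 653 and 693 CPM in unirradiated wild type, with 1 marker at 0 in irradiated mutant replicate 1 (Kitl is among the 16). Like Cd34, Mecom, Meis1 and Procr, they were highest in irradiated mutant replicate 2. Over the 8 libraries, r between log2 levels and the stromal sum was 0.97 for Cd34, 0.918 for Meis1, 0.906 for Mecom, 0.847 for Hlf, 0.792 for Procr and 0.701 for Egfl7. It was 0.245 for Gata2, −0.067 for Kit, −0.135 for Mycn and −0.591 for Hoxa9. These are descriptions over 8 libraries that share groups and depth, and the part of stromal content in the levels of Cd34, Mecom and Meis1 was not tested. The 20 endothelial markers, none at 0, summed to 786 and 861 CPM in irradiated mutants and 550 and 967 CPM in irradiated wild type, against 587 and 595 CPM in unirradiated mutants and 647 and 700 CPM in unirradiated wild type. The r with this sum was 0.832 for Cd34, 0.806 for Mecom, 0.781 for Meis1, 0.763 for Hlf, 0.725 for Egfl7 and 0.62 for Procr. For the remaining members it was 0.371 for Gata2, 0.084 for Kit, −0.023 for Mycn and −0.412 for Hoxa9.

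**Figure D3:**
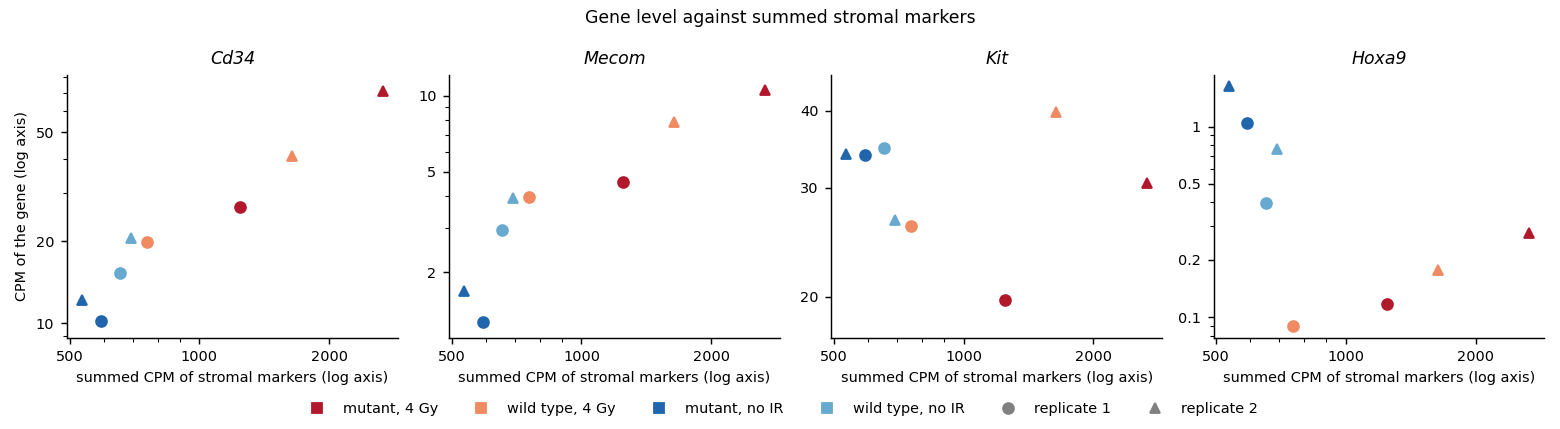
Level of Cd34, Mecom, Kit and Hoxa9 (vertical log axes, CPM) against the summed CPM of 16 stromal markers (horizontal log axes) in the 8 libraries; colour gives the group and shape the replicate number (no IR: not irradiated). Cd34 (r = 0.97) and Mecom (r = 0.906) lie along a rising line, while Kit (r = −0.067) does not.

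Mast cells, which carry KIT, together with basophils, and granulocyte precursors, which use Hoxa9, were examined in the same way. The 12 mast cell and basophil markers summed to 746 and 77.4 CPM in irradiated mutants and 550 and 251 CPM in irradiated wild type, against 147 and 192 CPM in unirradiated mutants and 175 and 140 CPM in unirradiated wild type. Most of that sum was Gata1, which is also an erythroid gene, and Il1rl1. Without these 2, a choice made after their values were seen and given with no test, the markers summed to 7.36 and 19.8 CPM in irradiated mutants and 5.77 and 3.97 CPM in irradiated wild type, against 37.5 and 59.9 CPM in unirradiated mutants and 18.3 and 15.6 CPM in unirradiated wild type. Between 1 and 5 of these 10 markers were at 0 in each irradiated library, and at most 1 in each unirradiated library. The 12 granulocyte precursor markers summed to 68.7 and 163 CPM in irradiated mutants and 53.0 and 52.7 CPM in irradiated wild type, against 2766 and 6363 CPM in unirradiated mutants and 1013 and 840 CPM in unirradiated wild type. Hoxa9 had the same order of groups, highest in unirradiated mutants and next in unirradiated wild type. After irradiation 11 of these 12 markers were below 0 in each genotype, with medians of −6.23 in mutants and −5.59 in wild type. By edgeR 10 of the 12 were called lower in mutants and 1 in wild type, beside 0.346% and 0.0462% of all genes called lower.

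The 18 megakaryocyte markers summed to 995 and 215 CPM in irradiated mutants and 643 and 559 CPM in irradiated wild type, against 744 and 1138 CPM in unirradiated mutants and 820 and 906 CPM in unirradiated wild type, so irradiated mutant replicate 1 lay among the unirradiated libraries. Without Gfi1b and Nfe2, also left out after values were seen, they summed to 196 and 139 CPM in irradiated mutants and 153 and 175 CPM in irradiated wild type, against 605 and 970 CPM in unirradiated mutants and 661 and 750 CPM in unirradiated wild type. Of the full list of 18, edgeR called 6 lower after irradiation in mutants and 1 in wild type. Over the 8 libraries, r with the full sum was −0.866 for Procr, −0.794 for Meis1, −0.792 for Cd34, −0.704 for Mecom, −0.54 for Hlf and −0.447 for Egfl7. It was −0.192 for Kit, 0.243 for Mycn, 0.245 for Gata2 and 0.359 for Hoxa9, again as descriptions. Adipose markers summed to 442 and 1496 CPM in irradiated mutants and 224 and 359 CPM in irradiated wild type, against 131 and 174 CPM in unirradiated mutants and 123 and 256 CPM in unirradiated wild type, and were highest in the library with the most Cd34, Procr and Meis1. Erythroid markers summed to 194177 and 16562 CPM in irradiated mutants and 79873 and 85037 CPM in irradiated wild type, against 23444 and 22782 CPM in unirradiated mutants and 30665 and 48847 CPM in unirradiated wild type. The 19 liver markers summed to 633 and 157 CPM in irradiated mutants and 129 and 146 CPM in irradiated wild type, against 12.3 and 17.4 CPM in unirradiated mutants and 11.9 and 17.9 CPM in unirradiated wild type, where 10 to 13 of them were at 0. Of the 18 liver markers tested, edgeR called 3 higher after irradiation in mutants and 0 in wild type. B cell markers summed to 101 and 1332 CPM in irradiated mutants and 848 and 1662 CPM in irradiated wild type, against 2652 and 2708 CPM in unirradiated mutants and 4084 and 5097 CPM in unirradiated wild type. The part of these cells and tissues in the levels of the 10 genes was not tested.

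**Figure D4:**
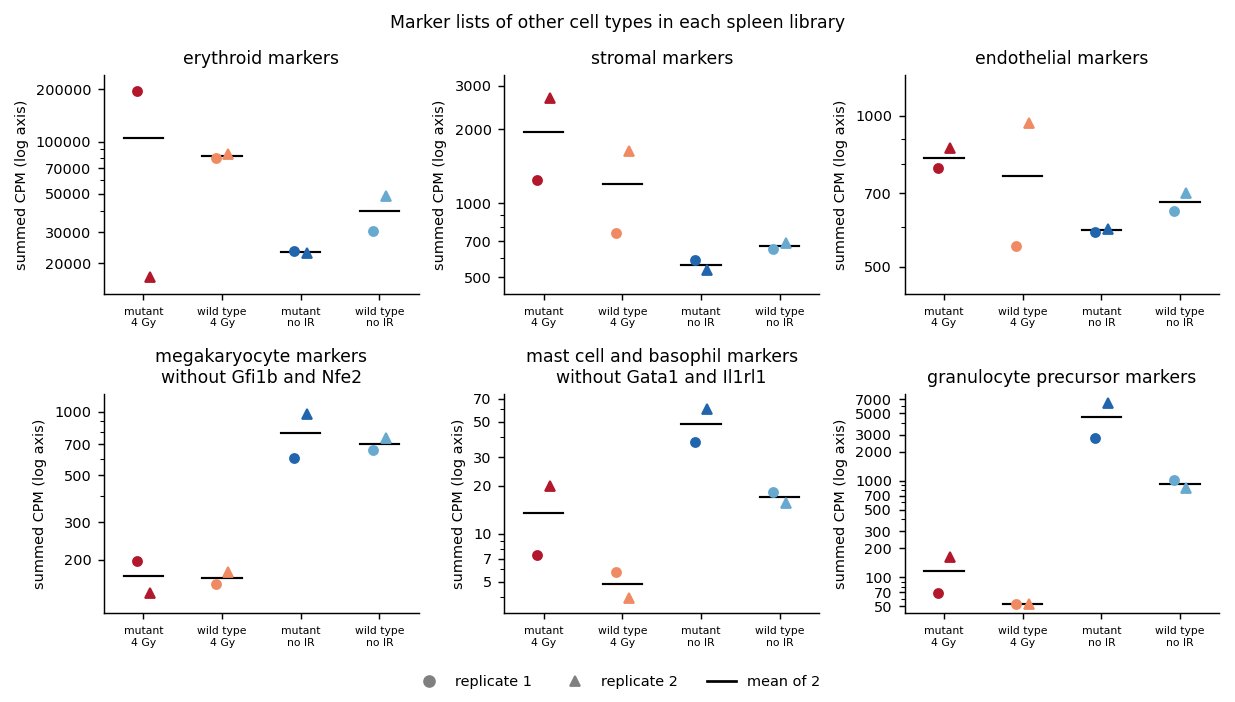
Summed CPM of 6 marker lists in the 8 libraries (vertical log axes), with irradiated mutants, irradiated wild type, unirradiated mutants and unirradiated wild type from left to right (no IR: not irradiated), shape for replicate number and a line at the mean of 2. The mast cell and basophil list is drawn without Gata1 and Il1rl1, and the megakaryocyte list without Gfi1b and Nfe2, choices made after values were seen. The full mast cell and basophil list summed to 746 and 77.4 CPM in irradiated mutants and 550 and 251 CPM in irradiated wild type. In unirradiated libraries that full list summed to 140 to 192 CPM. The full megakaryocyte list summed to 995 and 215 CPM in irradiated mutants and 643 and 559 CPM in irradiated wild type, against 744 to 1138 CPM in unirradiated libraries. Irradiated mutant replicate 1 thus lay among the unirradiated libraries on the full list, which the drawn list does not show. Granulocyte precursor markers were at 52.7 to 163 CPM in irradiated and 840 to 6363 CPM in unirradiated libraries, while stromal markers were highest, at 2666 CPM, in irradiated mutant replicate 2.

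The genes most like each member across the 8 libraries, by Pearson's r of log2 CPM among 10787 genes with a mean of at least 5 CPM, were searched for description. Cd34 was most like Col1a2 (r = 0.99) and Igfbp4, and Mecom was most like Il11ra1 (r = 0.99), Esam and Mgp. Egfl7 was most like Ccn2 (r = 0.99), Elk4 and Gpihbp1, Meis1 most like Rhoj (r = 0.99), Fam114a1 and Hsf2, and Procr most like Blcap (r = 0.99), Dcun1d3 and Cxcl16. For Hoxa9 the nearest were Flot2 (r = 0.98), Clec5a and Ssr4, and for Hlf Pgap2 (r = 0.98), F11r and Tmbim1. The nearest genes of Kit (Rtl5, r = 0.96), Mycn (Slc38a7, r = 0.94) and Gata2 (Akt2, r = 0.93) were less close. Among the members themselves Cd34 and Mecom were closest (r = 0.972), followed by Cd34 and Meis1 (r = 0.886), while Hoxa9 ran against Egfl7 (r = −0.801) and Mecom (r = −0.701). With 8 libraries in 4 groups, and so many genes searched, these values carry no test.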

How the data were processed

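The authors deposited 1 table of read counts per gene, in whole numbers and not normalised, with a column for each library. In it 0 lines named no gene and 0 columns belonged to no sample. Trizol extraction of RNA and a kit for mRNA libraries are recorded per the labels' protocols. The submitters' processing notes name Trim Galore, Subread, featureCounts and the builds hg38 and mm10, without saying which build served which sample. Tool versions, strand setting, annotation release and treatment of reads with several matches are given in none of the sources used here. Symbols came from GENCODE M21 (GRCm38), which matched 52403 of 52636 identifiers (49035 with the version), and 233 had none.

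Low counts were filtered with filterByExpr at min.count 10 and min.total.count 15. After TMM scaling, edgeR 4.0.16 under R 4.3.3 fitted all 8 libraries together, 1 term per group, and tested 5 contrasts by its quasi-likelihood F test. P-values were adjusted after Benjamini and Hochberg over 17327 genes, with 0.05 as the threshold. Residual degrees of freedom numbered 4, prior degrees of freedom 3.88, and the common dispersion was 0.152. The SE of a log2 fold change was its size divided by the square root of F. TPM used summed exon lengths. Counting intervals for Hoxa9 were exact, at 95%. Promoter windows were those of RefSeq, GRCm38.p6, found for all 10 genes. The fit was also tested on simulated data in which 200 genes differed by known folds.

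The 10 genes, the lists and the genes named from them (up to 4 with the smallest p per list and contrast, up to 3 most like each member) were chosen with earlier results of these data known. Some genes that this rule names are not reported here. Alternatives were DESeq2's size factors, TMM without globin, immunoglobulin, T cell receptor and mitochondrial genes, no filter, DESeq2 1.42.0, limma-voom (limma 3.58.1), the compared groups alone, a replicate block, leaving out each library and, added after seeing the data, raw library totals. Replicates of a group differed beyond sampling noise, at 21.2 to 374 chi-square units per degree of freedom. Nothing says that they came from separate mice, so p-values measure the spread between these libraries, which may be technical.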

Additional observations from a re-analysis of the deposited data

How the results depend on the processing

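In irradiated compared with unirradiated mutants, the number of the 10 genes that passed was 0 as reported, 3 without the filter (Cd34, Procr and Mecom), 2 by DESeq2 (Cd34 and Mecom) and 0 to 3 when 1 library was left out; in the other comparisons it was 0 under every alternative run. With a replicate block it was 1 (Cd34, 1.98, edgeR, adjusted p = 0.04997). Nothing in the labels pairs libraries of the same replicate number. Their deviations correlated at 0.465 between irradiated mutants and irradiated wild type, so these groups shared part of the difference between their replicates. Between the other pairs of groups the correlation was 0.035 to 0.245. The number of all genes called in that comparison was 104 as reported, 2147 without the filter, 1962 by DESeq2, 0 with the compared groups alone, 253 with the block, 60 with raw totals and 3 to 4428 with 1 library left out. For irradiated compared with unirradiated wild type it was 10 as reported, 1580 without the filter, 1161 by DESeq2, 5 by limma-voom, 1107 with the compared groups alone, 16 with the block and 0 to 2551 with 1 library left out. Between irradiated genotypes it was 0 as reported, 168, 73 and 0 to 482 without the filter, by DESeq2 and with 1 library left out. Between unirradiated genotypes it was 0 as reported, 143 without the filter, 60 by DESeq2, 469 with the compared groups alone and 0 to 15 with 1 library left out. For the interaction it was 0 as reported, 52 without the filter, 4 by DESeq2 and 0 with 1 library left out; the compared groups alone could not be run for it, since all 8 libraries are needed. The causes were not tested.

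Signs turned between irradiated genotypes for Procr by limma-voom (−0.13) and with the block (−0.13), in irradiated compared with unirradiated mutants for Gata2 (−0.16) and Mycn (−0.23) with raw totals, and in wild type for Kit without the filter (−9e-04) and with raw totals (−0.24). With 1 library left out, the lone library of a group being assumed to vary like the others, signs turned between irradiated genotypes for Cd34 (−0.25 to 1.29), Procr (−1.56 to 0.81), Gata2 (−0.74 to 0.11), Meis1 (−0.20 to 1.003), Hoxa9 (−0.24 to 1.18), Hlf (−0.41 to 1.18) and Mecom (−0.44 to 0.94). Between unirradiated genotypes they turned for Kit (−0.036 to 0.35), Gata2 (−0.015 to 0.29) and Mycn (−0.37 to 0.18). After irradiation they turned for Procr (−0.22 to 2.15), Gata2 (−0.28 to 0.57) and Mycn (−0.10 to 0.27) in mutants and for Kit (−0.25 to 0.36) in wild type, and in the interaction for Procr (−1.09 to 1.28), Meis1 (−0.44 to 0.79), Hlf (−1.05 to 0.59) and Egfl7 (−0.083 to 0.48). None of these differences passed as reported; of the values in these ranges, Procr in mutants at 2.15, without irradiated mutant replicate 1, did. Without irradiated mutant replicate 2, 10 of 50 differences turned sign. Hoxa9, at 1 to 5 counts in irradiated libraries, was limited by depth.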
